A study of Homo sapiens with 41 samples.

Results

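Elongin A peaks far from protein-coding genes were described in DLD1 cells, an established line of human colon cancer. They are the distal intergenic peaks of the goat antibody CUT&RUN list, defined by a summit that lies outside every annotated gene of any type and more than 10 kb from the nearest start or end of a protein-coding gene. Of the 8720 peaks of that list, 2201 had a summit outside every gene, and 1192 of these were distal, which is 13.7% of the list (95% Wilson interval, 13 to 14.4%). Membership rests on position alone and not on any measured value. The cells were wild type, received no siRNA and were fixed with formaldehyde. CUT&RUN uses an antibody to bring a nuclease to a protein on chromatin, so that the DNA beside it is cut out and sequenced. The goat antibody list came from 2 replicates and 1 goat IgG control, a second list came from 1 sample with a mouse antibody, for which the labels hold 1 mouse IgG control, and another came from 1 ChIP-seq sample and 1 input control.

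No list separates replicates and none holds read totals, so values have no replicate error, the depth is unknown, and no test over peaks was made. Intervals given below cover counting error only. Among the distal peaks, 855 (71.7%) had the same pair of fold enrichment and q-value as another distal peak, with up to 15 peaks on 1 pair. Such steps set the resolution of the values. The X chromosome held 23 distal peaks, or 0.324 per Mb of distal sequence, against 1.29 per Mb over all chromosomes. Other goat peaks were also sparser there, at 0.986 per Mb against 3.89 per Mb over all chromosomes. The copy number of DLD1 chromosomes was not analysed here.

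Elongin A is the largest subunit of the Elongin complex, which it forms with Elongin B and Elongin C and which raises the rate of RNA polymerase II (RNAPII) elongation in vitro. Sequence far from coding genes can hold enhancers, which are clusters of transcription factor sites that act on a promoter at a distance and are often themselves transcribed by RNAPII. It also holds genes for short noncoding RNAs. Among these are the U1, U2 and U4 small nuclear RNA (snRNA) genes, which encode RNA parts of the spliceosome, are transcribed by RNAPII and end without a poly(A) tail. AP-1, a dimer of FOS and JUN family proteins, binds many enhancers of epithelial cells. Its letters were searched here as TGANTCA, where N is any base. The shares below were not split by that base. They therefore count TGAATCA and TGATTCA together with TGAGTCA and TGACTCA.

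The sequences that carry the findings are of 3 kinds, all read from the plus strand of hg19. The first are windows of 100 bp on either side of the summits of the strongest distal peaks with a single-copy summit, and of the distal peaks present in all 3 lists. Capitals mark letters of any of 17 factor motifs searched on both strands. Motifs were found in 3 of these 7 windows, and AP-1 letters in none of them.
RNVU1-18 (chr1:149223766-149223966): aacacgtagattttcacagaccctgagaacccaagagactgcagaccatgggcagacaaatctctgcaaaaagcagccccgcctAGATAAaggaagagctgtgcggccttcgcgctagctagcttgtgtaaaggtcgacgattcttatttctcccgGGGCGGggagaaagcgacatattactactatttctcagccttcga
RNU1-1 (chr1:16839806-16840006): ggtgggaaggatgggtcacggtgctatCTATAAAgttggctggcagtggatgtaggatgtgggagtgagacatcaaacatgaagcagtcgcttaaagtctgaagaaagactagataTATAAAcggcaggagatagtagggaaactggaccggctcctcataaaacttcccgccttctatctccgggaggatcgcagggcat
RNU4-2 (chr12:120729295-120729495): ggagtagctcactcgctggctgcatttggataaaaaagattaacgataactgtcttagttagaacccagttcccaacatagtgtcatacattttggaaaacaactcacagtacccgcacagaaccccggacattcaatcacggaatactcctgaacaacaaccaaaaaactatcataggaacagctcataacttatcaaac
RNF24 region (chr20:4022702-4022902): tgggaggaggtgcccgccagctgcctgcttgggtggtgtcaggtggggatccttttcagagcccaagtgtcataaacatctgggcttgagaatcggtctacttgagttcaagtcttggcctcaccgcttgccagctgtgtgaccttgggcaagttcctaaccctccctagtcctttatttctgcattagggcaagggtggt
RNU2-63P (chr2:88315629-88315829): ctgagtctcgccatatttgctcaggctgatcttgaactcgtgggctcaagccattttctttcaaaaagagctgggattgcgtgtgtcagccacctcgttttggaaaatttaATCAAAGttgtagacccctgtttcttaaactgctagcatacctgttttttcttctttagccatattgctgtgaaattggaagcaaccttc
RNU1-120P (chr1:147736068-147736268): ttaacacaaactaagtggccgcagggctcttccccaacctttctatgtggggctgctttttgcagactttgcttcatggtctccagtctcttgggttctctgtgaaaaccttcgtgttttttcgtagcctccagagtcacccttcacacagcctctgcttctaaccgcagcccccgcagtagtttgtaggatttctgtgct
MIR3687 (chr21:9827068-9827268): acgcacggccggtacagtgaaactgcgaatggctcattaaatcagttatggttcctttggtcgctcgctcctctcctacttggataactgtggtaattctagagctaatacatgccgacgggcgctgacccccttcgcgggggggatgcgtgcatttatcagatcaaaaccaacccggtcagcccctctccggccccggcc

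The second kind are stretches at IRS1, a gene for an adaptor protein of the insulin receptor. It was chosen after the values were seen, as a gene with 5 or more distal peaks that all had AP-1 letters within 300 bp of the summit. Each stretch runs from 20 bases on the outer side of the summit to 20 bases beyond the nearest AP-1 letters, which are in capitals. Where the capitals stand at the left, the summit is 20 bases from the right end, and the reverse.
IRS1 peak (chr2:226979997-226980256): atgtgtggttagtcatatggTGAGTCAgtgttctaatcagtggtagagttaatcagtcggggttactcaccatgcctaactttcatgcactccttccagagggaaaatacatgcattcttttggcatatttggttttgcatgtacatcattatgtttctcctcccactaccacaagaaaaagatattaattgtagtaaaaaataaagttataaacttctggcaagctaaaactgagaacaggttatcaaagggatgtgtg
IRS1 peak (chr2:227276392-227276672): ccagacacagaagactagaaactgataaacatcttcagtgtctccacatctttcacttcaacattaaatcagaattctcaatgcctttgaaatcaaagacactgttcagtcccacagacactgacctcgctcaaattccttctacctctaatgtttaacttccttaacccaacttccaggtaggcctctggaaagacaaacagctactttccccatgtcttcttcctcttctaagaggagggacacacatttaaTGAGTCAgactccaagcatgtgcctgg
IRS1 peak (chr2:227343032-227343281): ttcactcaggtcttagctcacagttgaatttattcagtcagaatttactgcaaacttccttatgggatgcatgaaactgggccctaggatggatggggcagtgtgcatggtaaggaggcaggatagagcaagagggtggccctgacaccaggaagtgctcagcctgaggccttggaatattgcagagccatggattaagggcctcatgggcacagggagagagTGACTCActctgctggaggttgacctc
IRS1 peak (chr2:227517238-227517513): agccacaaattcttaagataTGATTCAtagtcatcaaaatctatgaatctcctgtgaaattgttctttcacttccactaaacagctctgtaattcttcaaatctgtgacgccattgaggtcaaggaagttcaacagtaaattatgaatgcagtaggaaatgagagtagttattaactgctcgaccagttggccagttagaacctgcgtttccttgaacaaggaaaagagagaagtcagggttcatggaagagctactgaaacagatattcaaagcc
IRS1 peak (chr2:227523431-227523601): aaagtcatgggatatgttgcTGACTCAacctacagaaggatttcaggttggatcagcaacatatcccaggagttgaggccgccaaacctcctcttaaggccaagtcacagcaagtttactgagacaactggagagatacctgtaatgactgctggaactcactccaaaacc
IRS1 peak (chr2:227526468-227526639): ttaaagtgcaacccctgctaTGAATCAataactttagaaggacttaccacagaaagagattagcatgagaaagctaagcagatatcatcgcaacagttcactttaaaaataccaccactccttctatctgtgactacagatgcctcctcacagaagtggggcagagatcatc

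Last come windows of 299 bp centred on 3 summits of the largest cluster, near FAT1, which encodes a large cadherin of the cell surface. They are the windows of that cluster with AP-1 letters inside this span, shown in capitals.
FAT1 cluster (chr4:187729726-187730024): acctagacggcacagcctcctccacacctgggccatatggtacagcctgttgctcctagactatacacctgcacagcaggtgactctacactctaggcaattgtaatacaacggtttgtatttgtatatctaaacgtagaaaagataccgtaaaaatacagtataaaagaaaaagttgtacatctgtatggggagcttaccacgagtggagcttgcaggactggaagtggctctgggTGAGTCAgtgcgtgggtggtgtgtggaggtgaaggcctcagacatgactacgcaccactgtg
FAT1 cluster (chr4:187746192-187746490): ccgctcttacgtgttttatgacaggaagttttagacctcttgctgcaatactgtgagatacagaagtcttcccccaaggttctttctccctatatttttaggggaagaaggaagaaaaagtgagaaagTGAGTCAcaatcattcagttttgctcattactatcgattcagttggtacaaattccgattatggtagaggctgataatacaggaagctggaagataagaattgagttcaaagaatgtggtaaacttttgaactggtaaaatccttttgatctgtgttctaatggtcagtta
FAT1 cluster (chr4:187752876-187753174): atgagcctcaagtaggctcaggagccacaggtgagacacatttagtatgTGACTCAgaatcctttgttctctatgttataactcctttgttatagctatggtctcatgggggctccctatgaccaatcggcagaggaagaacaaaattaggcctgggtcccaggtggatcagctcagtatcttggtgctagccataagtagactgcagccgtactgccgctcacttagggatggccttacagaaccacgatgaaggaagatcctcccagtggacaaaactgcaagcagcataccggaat

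The distal peaks were few for the sequence that could hold them. Distal sequence made up 923 Mb, or 32.3%, of the 2859 Mb of ungapped hg19, and held 1.29 peaks per Mb (95% Poisson interval, 1.22 to 1.37). The rest of the genome held 3.89 goat peaks per Mb. The fold enrichment of a peak, the peak caller's ratio of the signal to its local background, had a median of 4.31 (interquartile range 3.51 to 5.18) in the distal peaks and 4.33 in all other goat peaks. The median −log10 q-value was 4.51 against 4.61. The middle width was 344 bp for distal peaks (interquartile range 250 to 486 bp) and 365 bp for other peaks. A width of 1 kb or more was seen in 29 distal peaks (2.43%) and in 4.84% of the others. By height and width the distal peaks were therefore close to the rest of the list, with fewer wide peaks. The median GC content within 100 bp of the summit was 41.8%, between that of tiles of all distal sequence (mean 39.4%) and that of goat peaks within 1 kb of a coding transcription start site (TSS), at 55.2%.

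Values near the 10 kb limit did not separate members from their neighbours. The 3 distal peaks closest to it lay 10021 bp, 10062 bp and 10079 bp from a coding gene, with SYDE2, GPRC5A and S100A10 as the nearest TSSs and fold enrichments of 4.42, 3.74 and 4.03. The 3 intergenic peaks just short of it lay 9959 bp, 9941 bp and 9940 bp from one, with TXNDC2, CD180 and EAPP as the nearest TSSs and fold enrichments of 6.34, 3.47 and 5.65.

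Several of the strongest distal peaks stood at or beside snRNA genes. Of the 10 distal peaks of highest fold enrichment, 6 had a small RNA gene within 1 kb of the summit, whereas 8 of the other 1182 (0.677%) did. Of the 100 highest, 7 did. The highest, at chr1:149222610-149224092, had a fold enrichment of 21.2 and a −log10 q-value of 158, and its summit lay 192 bp downstream of the U1 gene RNVU1-18. This was the fifth highest peak of the whole list. The peak at chr1:16839216-16840610 had a fold enrichment of 17.5 and a summit 711 bp downstream of RNU1-1, a U1 gene. The widest distal peak, of 3299 bp at chr12:120728453-120731751, covered the U4 genes RNU4-2 and RNU4-1, had a fold enrichment of 14.7, and had its summit 171 bp downstream of RNU4-2. At the U2-like entry RNU2-63P the fold enrichment was 12.4, with the summit 144 bp downstream of it. At RNU2-64P it was 10.6, with the summit 51 bp upstream. At RNVU1-8 it was 10.5, with the summit 316 bp downstream. Though their summits lay outside, the called peaks also reached into RNVU1-18, RNU2-63P and RNU2-64P, but not into RNU1-1 or RNVU1-8. Of all distal peaks, 23 (1.93%) overlapped a gene of any type in this way.

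In all, 14 distal peaks (1.17%) had a small RNA gene within 1 kb, against 2.24% of the other goat peaks. Of these 14, 10 were at snRNA genes, 3 at microRNA genes and 1 at RNY5, a Y RNA gene. The summit lay downstream of the snRNA gene in 7 of the 10, at 144 to 711 bp, and upstream in 3. One of the 3 was a second peak at RNVU1-18, on its other side, with a fold enrichment of 6.25. The other two were at RNU2-64P and at RNU6-8, a U6 entry of a kind transcribed by RNA polymerase III, where the fold enrichment was 4.24. At the microRNA genes it was 8.04 beside MIRLET7B, a let-7 family gene, 6.30 beside MIR5702, and 1.90 beside MIR3687. Genes for U1, U2 and U4 have many near-identical copies and the study states no mapping quality filter, so reads could be shared between copies. For 13 of the 14, hg19 holds no second exact copy of the 32 bp at the summit, the exception being MIR3687 with 3 copies. Copies with any mismatch and the rest of each peak were not checked, so shared reads remain possible.

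Strong distal peaks were also found with no gene annotated as a small RNA within 1 kb. Without the 14 peaks the highest fold enrichment was 12.52, at chr20:4022295-4023108, 26.6 kb from the TSS of RNF24, and neither other list had a peak there. A fold enrichment of 10 or more was reached by 9 distal peaks, 6 of them among the 14. Another lay at chr17:19014602-19015624, 15.6 kb from GRAPL, with a fold enrichment of 11.2 in both the goat and the mouse antibody list. Its summit was 20 bp from a gene at 19015313 to 19015949, which the annotation types as a long noncoding RNA. The counts of small RNA genes go by the annotated type alone. Whether this gene encodes a short RNA was not checked. The ninth, at chr13:91505994-91506413 and 545 kb from GPC5, had a fold enrichment of 10.3, but its 32 bp at the summit had 124 copies in the genome. The tenth of the ranking lay 833 kb from NR2F1, which encodes a nuclear receptor, with a fold enrichment of 9.54.

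Support in the mouse antibody list was as frequent in the distal peaks as in the list as a whole. A mouse antibody peak overlapped 98 distal peaks (8.22%; 95% interval 6.79 to 9.92%), and 8.33% of all goat peaks. For these 98, the nearest mouse antibody summit was within 100 bp in 72 and within 500 bp in 96, at a median of 42 bp. Support did not rise steadily with fold enrichment. From the lowest to the highest quintile of distal peaks the overlapping share was 9.62%, 7.56%, 10.9%, 6.30% and 6.69%, with intervals that overlapped. Of the 10 highest peaks 6 were supported, and so were 6 of the next 90. Supported peaks were wider than unsupported ones, with medians of 428 and 335 bp, and had a median fold enrichment of 4.15 against 4.32. Apart from the snRNA peaks and the peak near GRAPL, the highest supported peaks lay near TMEM106A (fold enrichment 7.46), FGFR2, a fibroblast growth factor receptor gene (7.41), LPIN2 (6.95) and TGFA, which encodes an EGF receptor ligand (6.90).

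ChIP-seq support was rare. Of all goat peaks 0.837% overlapped a ChIP-seq peak, and of the distal peaks 7 did (0.587%; 95% interval 0.285 to 1.21%). Small RNA genes lay within 1 kb of 6 of the 7. Of the remaining 1178 distal peaks, 1 (0.0849%) overlapped a ChIP-seq peak and 91 (7.72%) a mouse antibody peak. The 5 ChIP-seq peaks at snRNA genes had fold enrichments of 32.1 at RNU4-2, 29.3 at RNU1-1, 19.2 at RNVU1-18, 16.2 at RNU2-63P and 11.6 at RNU1-120P. All 5 also overlapped mouse antibody peaks, whose fold enrichments ran from 4.73 at RNU1-1 to 7.85 at RNU4-2. The goat fold enrichment at RNU1-120P was 4.95. The other two had ChIP-seq fold enrichments of 1.82 and 1.76, 1966 kb from UQCRFS1 on chromosome 19 and beside MIR3687, which lies in a ribosomal RNA repeat, and their summit 32 bp had 3 copies each. Of the whole goat list, the MIR3687 peak had the lowest fold enrichment, 1.90, yet a −log10 q-value of 34.5.

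**Figure D1:**
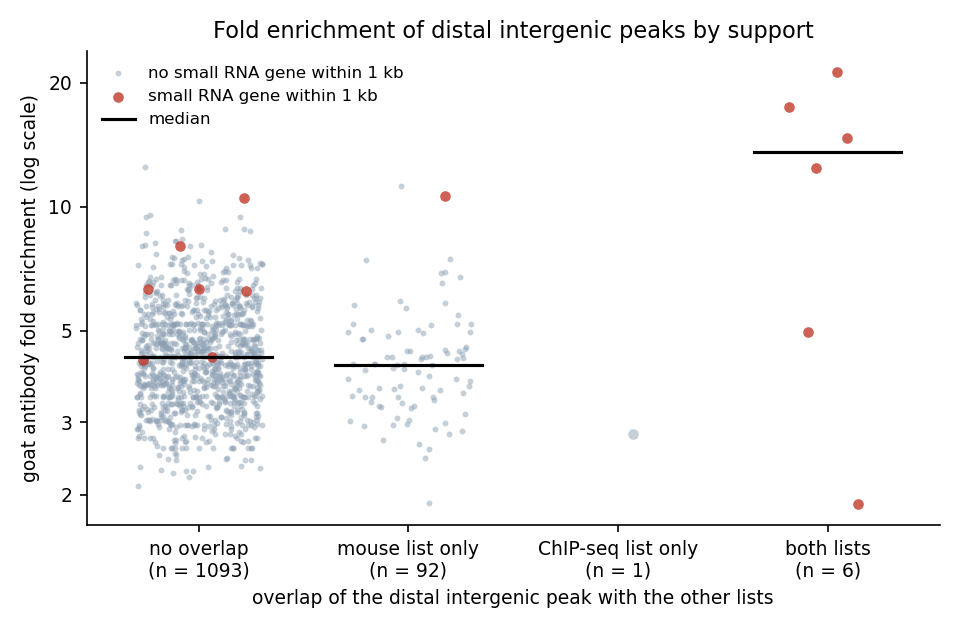
Goat antibody fold enrichment (log scale) of each of the 1192 distal intergenic peaks, by overlap with the mouse antibody and ChIP-seq lists. Each point is a peak, red points have a small RNA gene within 1 kb of the summit, and lines are medians where there is more than 1 peak. The 6 peaks in both lists are all red and have a median of 13.6, while peaks with no overlap and with the mouse list only have medians of 4.32 and 4.14.

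AP-1 letters were more frequent beside the summits of distal peaks than under them. Of the distal peaks, 38.3% had TGANTCA within 200 bp of the summit (457 peaks; 95% interval 35.6 to 41.1%), against 28.1% of other goat peaks and 12.8% of all tiles of distal sequence of the same length. Within 300 bp the shares were 53.9%, 39.2% and 18.5%. Within 100 bp they were 11.5%, 8.69% and 6.58%, and the share was 18.4% within 100 bp of the peak centre in place of the summit. Along the flanking sequence, matches were at 0.419 per kb within 50 bp of the summit (95% Poisson interval, 0.311 to 0.553), at 1.54 per kb (1.43 to 1.65) at 100 to 300 bp and at 0.357 per kb (0.324 to 0.393) at 500 to 1000 bp. The highest 50 bp bins were 150 to 200 bp from the summit on either side, at 2.18 and 1.90 per kb. A match at 100 to 300 bp was present in 570 distal peaks, on the side of lower coordinates only in 269, on the other side only in 221 and on both in 80. Other goat peaks had the same pair of maxima with fewer matches, at 1.04 per kb for 100 to 300 bp. The ring of 100 to 300 bp and the limit of 300 bp were chosen after the values were seen. Distal peaks had a median width of 344 bp, so letters in this ring can lie outside the called peak.

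**Figure D2:**
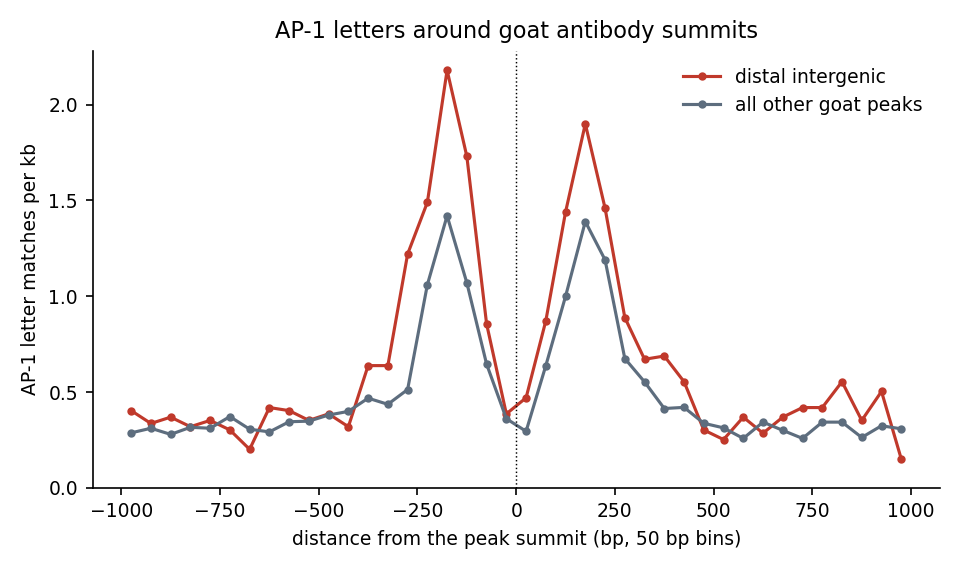
Matches to TGANTCA per kb on either strand (y axis) by distance from the goat antibody summit (x axis, 50 bp bins), for the 1192 distal intergenic peaks (red) and the 7528 other goat peaks (grey). Both curves are low at the summit and highest 150 to 200 bp from it on both sides, where distal peaks reach 2.18 and 1.90 per kb.

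Within 300 bp, the AP-1 share of distal peaks hardly varied with their height or support. It was 53.1% in the lowest and 53.1% in the highest quintile of fold enrichment, and between 52.9% and 55.9% in the others. It was 53.1% of the peaks that overlapped a mouse antibody peak and 53.9% of those that did not. Within 100 bp these were 7.14% (7 of 98; 95% interval 3.50 to 14%) and 11.9% (10.1 to 13.9%), with intervals that overlapped. Clustered and lone peaks, as defined with the clusters, had AP-1 letters within 200 bp in 30.7% (25.5 to 36.4%) and 40.6% (37.5 to 43.8%), and within 300 bp in 50.7% and 54.8%. It was 54.4% of peaks over 100 kb from a coding TSS and 53.4% of nearer ones. Median fold enrichment was 4.31 with AP-1 letters and 4.30 without. By contrast, AP-1 letters were in 2 of the 14 peaks with a small RNA gene within 1 kb (14.3%; 95% interval 4.01 to 39.9%). Among other kinds of goat peak the share ran from 14.8% within 1 kb of a coding TSS, through 44.4% in other genic sequence, to 51.6% in noncoding genes more than 10 kb from a coding gene. The last share was close to that of the distal intergenic peaks.

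**Figure D3:**
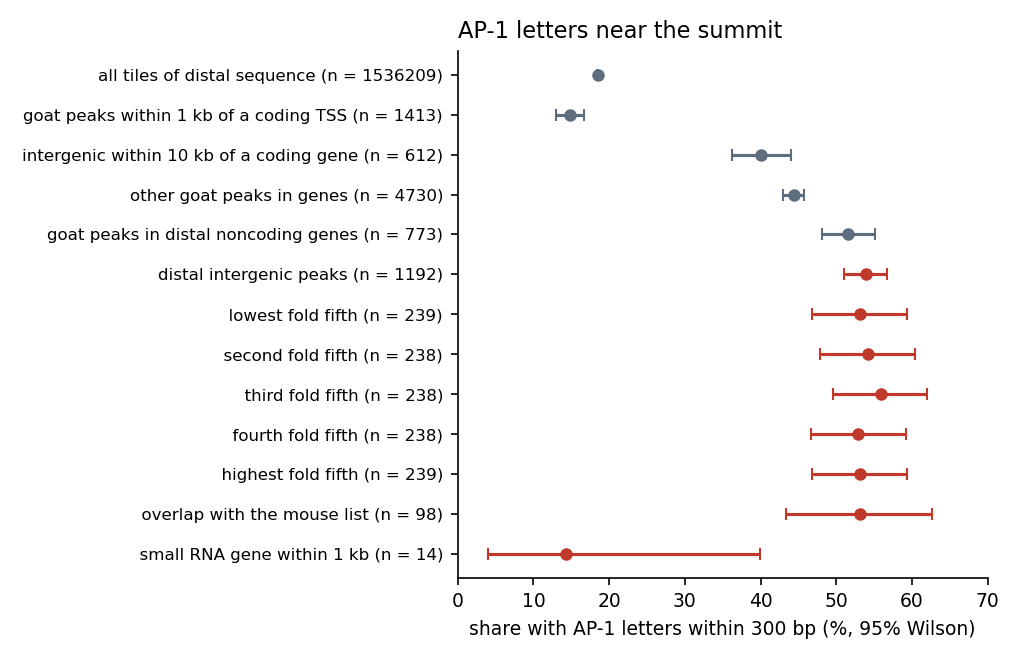
Share of peaks with TGANTCA within 300 bp of the summit, or of tiles of that length with it (x axis, %, with 95% Wilson intervals) for all tiles of distal sequence, other kinds of goat peak (grey) and the distal intergenic peaks and their subsets (red). The quintiles of fold enrichment sit between 52.9% and 55.9%, above the 18.5% of tiles, and the 14 peaks beside small RNA genes sit at 14.3%.

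Among the other letters searched, those of forkhead factors, TGTTTAC, were at 0.371 per kb 100 to 300 bp from distal summits and at 0.133 per kb 500 to 1000 bp away. Those of HNF4, a nuclear receptor of the gut and liver, were searched as CAAAGTCCA and were at 0.0398 and 0.0117 per kb, on 19 and 14 matches. TEAD letters, GGAATG, had 1.01 against 0.617 matches per kb at these distances. For the intestinal factors CDX, searched as TTTATNG, these densities were 1.15 and 0.742 per kb. GATA factor letters, AGATAA, had 1.09 against 0.788 per kb. The letters of the WNT pathway factors TCF/LEF, CTTTGAT, had 0.210 against 0.154 per kb. Letters of the insulator protein CTCF, AGGGGGC, had 0.103 against 0.122 per kb and were no denser beside the summit. Nor was the TATA box, searched as TATAAA, at 1.11 against 1.14 per kb. Other goat peaks also had the rises of the letters named first. The ratio of nearer to farther density in distal and other goat peaks was 1.64 and 1.57 for TEAD and 1.54 and 1.35 for CDX. It was 1.38 and 1.18 for GATA factors, 1.37 and 1.28 for TCF/LEF, 2.78 and 1.78 for forkhead and 3.39 and 1.47 for HNF4.

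The KLF/SP letters GGGCGG were within 100 bp of the summit in 3.69% of distal peaks, in 27.5% of peaks within 1 kb of a coding TSS and in 1.90% of distal tiles. The other letters searched were those of ETS factors, CCGGAAGT, of the E-box, CACGTG, of YY1, as AAGATGGC, of NRF1, as GCGCATGCG, of NF-kB, as GGGANTTCC, of the tRNA gene B box, as GTTCGANNC, and of CREB/ATF factors, as TGACGTCA. Within 100 bp of the summit, E-box letters were in 21 distal peaks (1.76%) and in 1.63% of distal tiles. The shares were 0.839% and 0.498% for NF-kB and 0.419% and 0.871% for YY1. They were 16.9% and 16.8% for CDX, 14.3% and 10.8% for TEAD and 18.5% and 15.9% for GATA factors. For TCF/LEF they were 4.61% and 3.56%, for forkhead factors 4.36% and 3.26%, and for HNF4 0.168% (2 peaks) and 0.257%. ETS letters were in 3 peaks (0.252%) and 0.0737% of tiles, and NRF1 letters in 2 peaks (0.168%) and 0.00838% of tiles. B box letters were also in 2 peaks, against 1.02% of tiles. CREB/ATF letters were in 0 peaks, which allows a share of up to 0.321% (Wilson), and in 0.0566% of tiles. The counts of 0 to 3 peaks are too small to rank these letters. CDX and TATA box letters can share bases. A match is a description of the letters and not a binding site.

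Distal peaks were denser near coding genes. The median distance to the nearest coding TSS was 77.6 kb (interquartile range 32.9 to 178 kb), against 180 kb for the 923446 tiles of 1 kb that make up distal sequence. Density ran from 2.46 per Mb (2.08 to 2.88) at 10 to 20 kb from a coding TSS to 1.86 per Mb at 50 to 100 kb and 0.429 per Mb (0.347 to 0.525) beyond 500 kb. The median fold enrichment stayed between 4.13 and 4.33 across these distances.

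Density was also higher where the nearest coding TSS itself held a goat peak within 1 kb. Of all coding genes 7.96% held such a peak. The nearest coding TSS held one for 118 distal peaks (9.90%; 95% interval 8.33 to 11.7%) and for 4.50% of distal 1 kb tiles. Distal sequence beside such a TSS held 2.84 peaks per Mb (2.35 to 3.40), and that beside other TSSs 1.22 per Mb (1.15 to 1.29). The same order held at each distance, from 5.01 against 2.13 per Mb at 10 to 50 kb to 1.53 against 0.571 per Mb beyond 200 kb. With both distal and TSS peaks limited to a fold enrichment of at least 5, the share was 2.03% (7 of 345 distal peaks; 95% interval 0.986 to 4.13%) against 1.57% of tiles, so a difference was not detectable at that limit. With the limit on the distal peaks alone it was 10.4% (36 of 345; 7.63 to 14.1%). The tile share and the last value were added after the data were seen. With any transcript start of the gene counted, the share was 16.6% of distal peaks, 7.72% of tiles and 11.3% of coding genes.

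**Figure D4:**
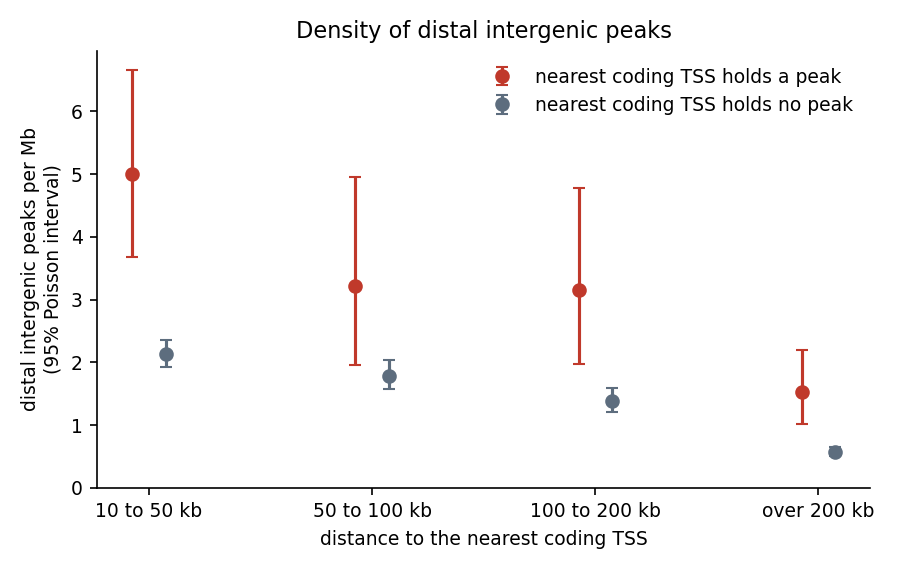
Distal intergenic peaks per Mb of distal sequence (y axis, 95% Poisson intervals) by distance to the nearest coding TSS (x axis), for sequence whose nearest coding TSS holds a goat peak within 1 kb (red) and all other distal sequence (grey). Red points are above grey at each distance, from 5.01 against 2.13 per Mb at 10 to 50 kb to 1.53 against 0.571 per Mb beyond 200 kb.

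The distal peaks were nearest to 846 coding genes, which is 9.19% of the 9204 coding genes that are nearest to any distal sequence. For 628 genes this was 1 peak, for 147 it was 2, for 42 it was 3 and for 29 it was 4 or more. The 13 genes with 5 or more held 80 of the peaks. Nearness names a neighbour and does not show which gene, if any, a peak acts on. Of the 13 genes, FAT1 had 38 goat peaks in its body and 1 kb around it, KLF5 had 6, and the other genes had 0 to 2.

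FAT1 (chromosome 4, 187508948 to 187647876) had 10 distal peaks, at 71.7 to 210 kb from its TSS and with fold enrichments of 2.84 to 5.69. None overlapped a mouse antibody peak. AREGB had 8, at 69.8 to 116 kb and 2.26 to 5.60. This record is an extra copy of AREG, the gene of the EGF receptor ligand amphiregulin, in this genome build, so its reads are uncertain. The 32 bp at each of its 8 distal summits had no second exact copy. BMP4, a secreted regulator of gut differentiation, had 7 peaks on both sides of the gene, at 20.6 to 167 kb. Their fold enrichments were 4.15, 6.45, 4.55, 3.78, 2.72, 4.2 and 3.81 in order of position. The strongest of them was therefore the one closest to the TSS, and 6 of the 7 had AP-1 letters within 300 bp.

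The Krüppel-like factor genes KLF5, KLF6 and KLF4, which encode zinc finger regulators of epithelial growth and differentiation, had 6, 6 and 5 distal peaks. Those of KLF5 lay 14 to 169 kb from its TSS, and the farthest was the strongest, with a fold enrichment of 6.26 against 2.93 to 3.67 for the other 5. Those of KLF6 had fold enrichments of 3.04 to 5.18, and 2 of them, at 44.7 and 193 kb, overlapped mouse antibody peaks. Those of KLF4 fell into 2 groups, with fold enrichments of 7.44 and 6.34 at 27.3 and 66.0 kb, and of 3.09 to 5.73 at 567 to 604 kb. IRS1 had 6 peaks at 138 to 684 kb with fold enrichments of 2.78 to 6.66, of which 2 overlapped mouse antibody peaks. Its AP-1 letters, printed above, lay 127 to 237 bp from the summits, and outside the called peak for those at 138 and 684 kb. In the stretches at 227517238 and 227526468 they read TGATTCA and TGAATCA, and elsewhere TGAGTCA or TGACTCA. The peak with a fold enrichment of 6.30 is the one beside MIR5702. OSR1, which encodes a zinc finger protein, had 5 peaks at 180 to 254 kb, all with AP-1 letters. For the peak at chr2:19740767-19740978 the nearest such letters read TGATTCA. DIPK2B had 6, 1 of which had 43 copies of its summit 32 bp, and ACTL7B had 6. CDCA7, EFNB2 (an ephrin ligand) and NR2F2 (a nuclear receptor) had 5 each. Over all 80 peaks of the 13 genes, 45 had AP-1 letters within 300 bp, beside 53.9% of all distal peaks.

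**Figure D5:**
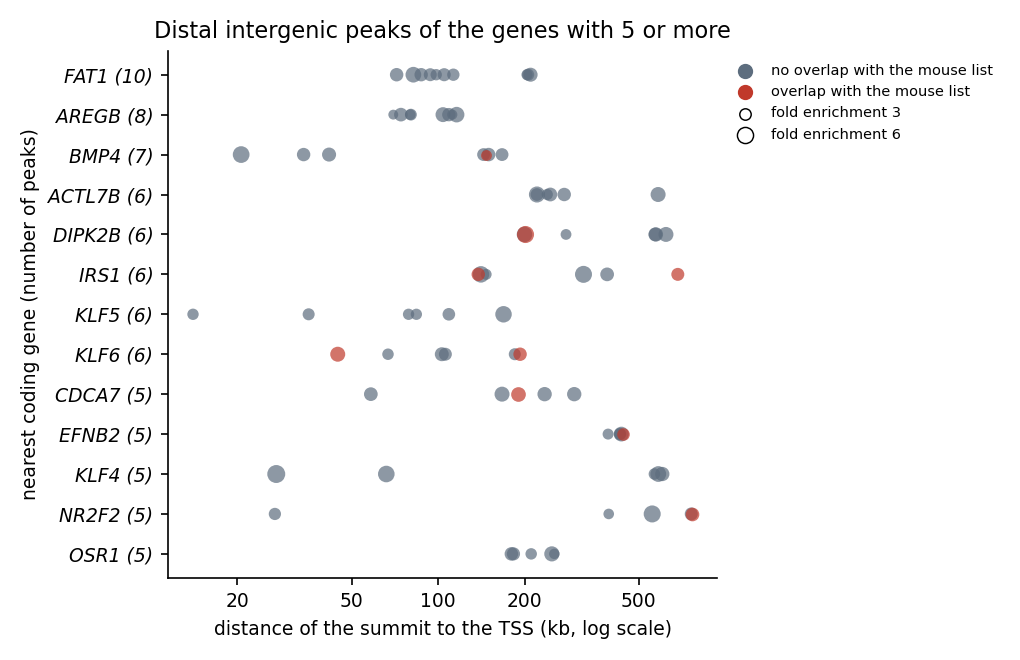
Distance of each distal intergenic peak to the TSS (x axis, kb, log scale) for the 13 coding genes with 5 or more such peaks (y axis, number in brackets). Point area is proportional to goat fold enrichment and red points overlap a mouse antibody peak. FAT1 has 10 peaks, 7 of them between 71.7 and 113 kb, and KLF4 has 2 near the gene and 3 at 567 to 604 kb.

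Genes of 3 lists, chosen with earlier results of these data known, were looked up among the neighbours. Each list had a larger share of genes with a distal peak than the 9.19% of all coding genes. These shares describe the lists and are no independent support. In the list of WNT targets and intestinal regulators, 12 of the 31 genes with distal sequence had one (38.7%), with 35 peaks in all and 6.11 per Mb against 1.29 per Mb for all genes. They were BMP4, KLF5, KLF4, FOXA2, a forkhead factor gene (4 peaks, the nearest at 95.3 kb and the others a cluster from 178 kb on), AXIN2, a feedback inhibitor of WNT signalling (3 peaks, 45.6 to 172 kb), SOX9, a crypt transcription factor (3 peaks, 113 to 791 kb), ELF3, EHF, EPHB2, ETS2, HES1 and LEF1. In the immediate early and stress response list 6 of 24 genes had one (25%; 13 peaks, 8.34 per Mb). Besides KLF6 these were DUSP5 and DUSP1, which encode phosphatases of MAP kinases, IER5, IER2 and CCN1. In the epithelial growth signalling and adhesion list 5 of 19 had one (26.3%; 7 peaks, 5.65 per Mb), among them EPHA2 with 3, KRT20, S100A10 and TGFA. AREG is in this list and had no distal peak under its own record. The 8 peaks nearest to its extra copy AREGB were not counted for the list. The median gene of each list had no distal peak. AP-1 letters within 300 bp were in 22 of the 35 peaks of the first list, in 6 of 13 of the second and in 4 of 7 of the third, beside 53.9% of all distal peaks.

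Distal peaks clustered less than goat peaks in general. With neighbouring summits at most 12500 bp apart counted as 1 cluster, 274 distal peaks (23%; 95% interval 20.7 to 25.5%) fell into 123 clusters, where neighbours had to be distal peaks themselves. With any goat peak as a neighbour, 307 distal peaks (25.8%) and 39.5% of all goat peaks had one this close. Distal sequence also held fewer peaks per Mb, as given above. There were 102 pairs, 17 clusters of 3, 3 of 4 and 1 of 7, and 918 peaks stood alone. Clustered and lone peaks had median fold enrichments of 4.14 and 4.32, and 9.12% and 7.95% overlapped mouse antibody peaks. The median distance from a distal peak to the nearest other goat peak of any kind was 55.4 kb, against 27.0 kb over the whole list.

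The cluster of 7 spanned 41.6 kb at chr4:187719435-187761255, in a gap of 1269 kb between FAT1 and ZFP42. In order of position its fold enrichments were 4.18, 5.69, 4.13, 3.88, 2.97, 3.95 and 3.51, and 4 of the 7 had AP-1 letters within 300 bp. A cluster of 3 on the far side of the same gene, between MTNR1A and FAT1, held 2 wide peaks of 1364 and 1206 bp, with fold enrichments of 7.76 and 4.44. The AREGB cluster of 4, between AREGB and BTC, another EGF receptor ligand gene, had fold enrichments of 5.14, 4.14, 2.43 and 5.60. The cluster of 4 nearest to EFNB2 lay 430 to 439 kb from its TSS, and 1 of its peaks overlapped a mouse antibody peak. That nearest to PREP lay between PREP and PRDM1, 139 kb from the first and 384 kb from the second, with fold enrichments of 3.45 to 4.4. In these 5 clusters the 32 bp at every summit had no second exact copy.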

How the data were processed

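Elongin A CUT&RUN and ChIP-seq were performed in DLD1 cells by the authors, and 3 peak lists were used. Paired-end reads were aligned by the authors to hg19 with Bowtie2 2.3.4.1, duplicates were removed with Picard 1.88, peaks were called with MACS2 2.1.1 at default settings (a q-value under 0.05) and lists were compared with bedtools 2.27.1. The control named by the methods for CUT&RUN is goat IgG, while the labels also list mouse IgG. How the 2 goat antibody replicates were combined is not given in the sources used here. The deposited values are a fold enrichment (a ratio to the local background), −log10 p-values and q-values, and a peak score. The score and p-value were not used.

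Summits were placed against gene records of GENCODE release 44 mapped to hg19. Overlap meant at least 1 bp. A TSS was the 5′ end of a gene record and held a peak if a goat summit lay within 1 kb. Letters were searched on both strands, also in all non-overlapping tiles of distal sequence, and copies are exact occurrences of the 32 bp at the summit on either strand. Shares carry 95% Wilson and densities 95% exact Poisson intervals. Python 3.11.15, pandas 2.3.3, scipy 1.17.1, pysam 0.24.0 and samtools 1.23.1 were used, and the scripts were tested on simulated data.

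Peaks named were the 10 of highest fold enrichment, those overlapping ChIP-seq peaks, the 10 highest overlapping mouse antibody peaks, the 5 largest clusters and those at the 10 kb limit. Genes named were their nearest coding TSSs, those with the most distal peaks and members of 3 lists. The members, lists and rules were chosen with earlier results of these data known. The 300 bp limit for AP-1 letters, the distance rings, the 1 kb limit for small RNA genes, the IRS1 stretches and the body counts were chosen after the values were seen. Some genes that the rule would name are not reported here.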

Additional observations from a re-analysis of the deposited data

How the results depend on the processing

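Replicate error and depth are unknown, and leaving out a replicate was not possible because the list is not split by replicate. No paired analysis was possible because the results come from no test. The repeat share could not be computed, as the reference marks no repeats. Of 108 values under other settings, 85 stayed within the tolerance and 23 moved beyond it. The tolerance was the 95% interval of a share or median and a factor of 1.5 for the number of peaks. The alternatives for width were chosen after seeing the data. With protein-coding genes alone as genes, 1965 peaks were distal, 27.8% of them in clusters, at a median of 86.9 kb from the nearest coding TSS. That distance was 60.0 kb with a limit of 5 kb and 101 kb with one of 20 kb. With the whole peak outside every gene, 0.257% overlapped a ChIP-seq peak. At a q-value under 0.01 the median fold enrichment was 4.43 and 19.4% were in clusters. At a q-value under 0.001 these were 4.66 and 17.9%, and the nearest TSS held a peak for 7.26%. At a fold enrichment of at least 5, 345 distal peaks were left, with a median of 5.81, a median width of 371 bp, 6.67% overlapping mouse antibody peaks, 5.22% in clusters and 2.03% with a peak at the nearest TSS. These thresholds also removed peaks at TSSs. The clustered share was 17.1% with nearby peaks merged, 15.8% with a gap of 5 kb and 28.9% with one of 25 kb. With any transcript start the TSS share was 16.6%. AP-1 letters were in 18.4% within 100 bp of the peak centre and in 38.3% within 200 bp of the summit. Elsewhere the number of distal peaks ran from 881 to 1405, mouse antibody overlap from 7.61 to 9.76% and ChIP-seq overlap from 0.438 to 1.16%.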

Other observations

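Of the 383 distal peaks of the mouse antibody list, 284 overlapped no goat antibody peak, and the highest of these, at chr10:98561334-98561551, had a fold enrichment of 10.2. Of the 19 distal ChIP-seq peaks, 12 overlapped none. One of the 12, at chr1:144534107-144534398, had a fold enrichment of 6.42 and a summit 60 bp from the U1 entry RNU1-59P. Goat antibody peaks were overlapped by 25.8% of the distal and 32.4% of all mouse antibody peaks, and by 36.8% of the distal and 41.4% of all ChIP-seq peaks. Both named peaks were chosen after their values were seen. Distal goat antibody peaks whose summit 32 bp occur more than once in the genome numbered 51 (4.28%), against 3.0% of other goat peaks. Their highest copy number was 2593, against 38948 in the others. The share was 5.23% in intergenic peaks within 10 kb of a coding gene. It was 4.14% in noncoding genes more than 10 kb from a coding gene, 3.13% in other genic sequence and 0.991% within 1 kb of a coding TSS.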
